A study of Mus musculus with 2 samples.

Results

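The mitochondrial ribosomal protein genes were taken as all genes whose probe sets carry a single symbol in the platform annotation that starts with Mrpl or Mrps followed by a number. This gave 74 of the 12393 genes on the array, read by 127 of 20380 probe sets with 1 gene symbol. By name, 47 genes (88 probe sets) belong to the large subunit and 27 genes (39 probe sets) to the small subunit. No measured value entered this choice, and the annotation supplied the names.

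Messenger RNA was measured on Affymetrix mouse 430A arrays in RAW 264.7, an established mouse macrophage-like tumour cell line. Cells received IFN-gamma at 1000 U/ml together with adenosine at 300 uM for 4 h, or IFN-gamma at 1000 U/ml alone for 4 h. RNA from 2 experiments was pooled for each treatment, so each treatment is 1 array, no difference below has a replicate check, and no p-value can be given. All cells had received IFN-gamma, and no untreated array was analysed here.

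Mitochondrial ribosomal proteins are encoded in the nucleus, made in the cytosol and imported into mitochondria. There they assemble on the ribosomal RNAs of the mitochondrial genome into a large subunit, which forms peptide bonds, and a small subunit, which reads the messenger RNA. This ribosome makes the few proteins encoded by mitochondrial DNA, which are core subunits of the respiratory chain and of ATP synthase. Some of its proteins have counterparts in bacterial ribosomes, and others are found only in mitochondrial ribosomes. In interferon-activated macrophages, respiration and mitochondrial metabolism are known to be remodelled, and adenosine is a purine nucleoside that acts through cell-surface receptors.

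The deposited signals stood at different levels, with a median of 15.2 on the adenosine array and 45.9 on the other, over 22626 probe sets for genes. The adenosine array was therefore multiplied by 2.82, which removes a shift of -1.495 in the log2 ratio, its median over probe sets above the middle of the deposited signals on both arrays. Every adenosine signal and log2 ratio below is on this scale unless called deposited, and higher or lower means relative to the array median. A floor of 44.0, the 50th percentile of the scaled signals, was applied, and a gene counted as measured if its brighter array reached it. Control transcripts spiked into both hybridizations had a median deposited log2 ratio of -0.53 ± 0.19 (SD over 18 probe sets), 0.97 above the shift of the genes, and the cause of this gap was not tested. The 3′ over 5′ signal, which reports on RNA integrity, stood at 1.12 on the adenosine array and 1.19 on the IFN-gamma array for Actb, and at 0.691 and 0.761 for Gapdh. All 13 macrophage markers examined were measured, with the largest ratios in Lyz2, a lysozyme (13361 with adenosine, 6444 with IFN-gamma alone), and the Fc receptor gene Fcgr3 (1365 and 2624). Every marker of lymphocytes, fibroblasts and epithelium, granulocytes and mast cells, or erythroid cells that was on the array was below the floor on both arrays (24 markers).

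Messenger RNAs of the mitochondrial ribosome stood close to the array median with adenosine. All 74 genes had their brightest probe set above the floor on both arrays. Signals ran from 107 to 1876 on the adenosine array, with a median of 635, and from 205 to 2047 on the IFN-gamma array, with a median of 705. The log2 ratio, adenosine with IFN-gamma over IFN-gamma alone, had a median of -0.12 and an interquartile range from -0.40 to 0.14. Over all 6818 measured genes the median was -0.08 and the interquartile range ran from -0.52 to 0.30. Below 0 were 45 mitoribosomal genes (60.8%), against 56.0% of all measured genes. In the deposited values all 74 ratios lay below 0, and with scaling on the spiked-in controls 73 did. The cause of the lower level of the whole adenosine array was not tested, and the arrays give neither cell number nor RNA per cell.

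**Figure D1:**
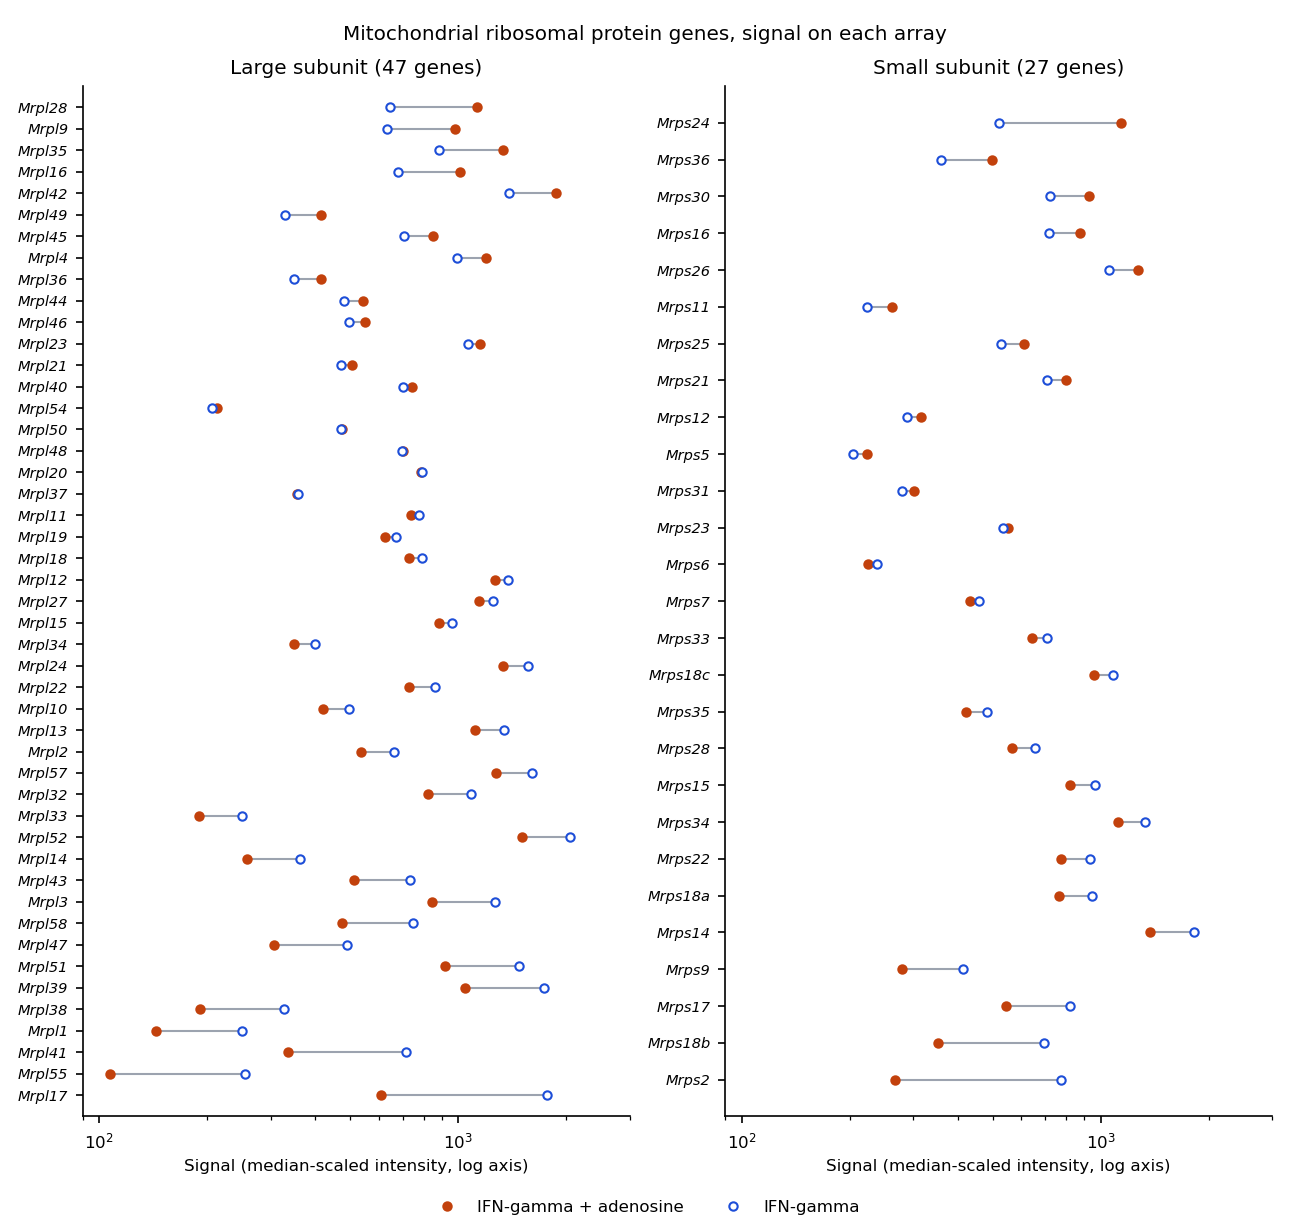
Signal of each of the 74 mitochondrial ribosomal protein genes on the adenosine array (filled) and on the IFN-gamma array (open), on a log axis of median-scaled intensity, with genes ordered by log2 ratio in each subunit and 1 array per treatment. Most pairs of points lie close together, and the longest bars belong to Mrpl17, Mrps2, Mrpl55, Mrps24 and Mrpl41.

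Few members were far from that median. At least 2-fold lower with adenosine were 4 of the 74 genes, where 10.1% of all measured genes were, and at least 2-fold higher was 1 gene, where 4.52% were. In either direction this makes 6.76% of the mitoribosomal genes, against 14.7% of all measured genes, a share that was smaller among the brighter genes, where most members lie. In the deposited values 69 members were at least 2-fold lower (93.2%), where 78.8% of measured genes were, and with scaling on the spiked-in controls 43 (58.1%), where 50.7% were. No member was then 2-fold higher, where 0.141% and 0.473% of measured genes were. At 1.5-fold, 12 members were lower and 4 higher, beside 21.8% and 12.9% of measured genes, and at 3-fold no member was lower or higher, beside 2.96% and 0.983%. Averaging all measured probe sets of a gene left no member 2-fold higher (3.91% of genes). Without probe sets that can match several transcripts, 2 of 54 members were 2-fold lower (Mrps2, and Mrpl1 by a dimmer probe set below the floor with adenosine) and none higher, beside 10.1% and 4.80% of genes. Within 0.5 of 0 on the log2 scale lay 54 members (73.0%), against 58.4% of all measured genes. The SD of the log2 ratios was 0.49 over the members and 0.72 over all measured genes. For comparison, the SD of a single log2 ratio, estimated from the 2 brightest probe sets of 2374 genes, was 0.52. Over the 22 members with more than 1 usable probe set it was 0.43. No spread between cultures or arrays can be had from these values.

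The subunits were compared by their medians. The median log2 ratio was -0.12 over the 47 large subunit genes and -0.08 over the 27 small subunit genes, a difference of -0.04 that could not be tested. The SD of single genes was 0.49 in each. The small subunit median turned to 0.0064 with loess scaling and 0.028 with quantile scaling. The large subunit held 3 of the 2-fold lower genes and no 2-fold higher one. In the small subunit 1 gene was lower and 1 higher. Below 0 were 30 large subunit genes (63.8%) and 15 small subunit genes (55.6%). In the known structure of the mammalian mitoribosome, the proteins of Mrps30 and Mrps18a sit in the large subunit, and the Mrps36 product is a component of the 2-oxoglutarate dehydrogenase complex rather than of the ribosome. Assigned that way, the medians were -0.12 and -0.11, a difference of -0.01.

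**Figure D2:**
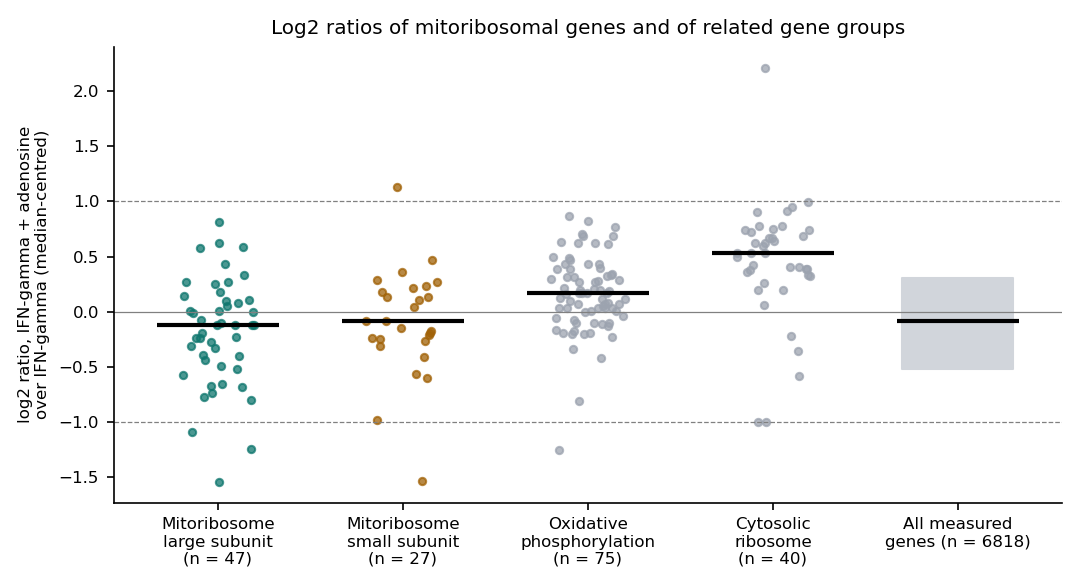
Median-centred log2 ratio (adenosine with IFN-gamma over IFN-gamma alone) for genes of the large (n = 47) and small (n = 27) mitoribosomal subunits, of oxidative phosphorylation (n = 75) and of the cytosolic ribosome (n = 40). Black bars are medians, the grey box is the interquartile range of 6818 measured genes, and dashed lines mark 2-fold; the mitoribosomal medians of -0.12 and -0.08 lie beside that of all genes, -0.08. In the deposited values every one of these medians is negative. With loess and quantile scaling that of the small subunit turns positive (0.0064 and 0.028). That of the cytosolic ribosome, 0.53 here, stands at 0.04 with loess and -0.05 with quantile scaling.

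The lowest log2 ratio belonged to Mrpl17, a large subunit protein with a bacterial counterpart that lies near the exit of the nascent peptide. Its signal was 607 with adenosine and 1770 with IFN-gamma alone, a log2 ratio of -1.54 or 2.91-fold lower. A second probe set of Mrpl17 was below the floor on both arrays, so the value rests on 1 probe set. Mrps2, a small subunit protein, was at 267 with adenosine and 775 with IFN-gamma alone, 2.90-fold lower. The other probe set read a log2 ratio of -0.49, against -1.54 for the brightest.

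Mrpl55, the large subunit counterpart of bacterial L31, was 2.37-fold lower, at 107 with adenosine and 254 with IFN-gamma alone. It had the lowest signal of all members on the adenosine array and is read by 1 probe set. With the floor at the 67th percentile its log2 ratio was -0.65, short of 2-fold. Mrpl41, found only in mitochondrial ribosomes and also reported to bind the survival protein BCL2, was 2.13-fold lower (336 against 715). Its second probe set gave -0.85, the same direction but short of 2-fold. Just short of 2-fold by its only probe set was Mrps18b, at 352 with adenosine and 694 with IFN-gamma alone, a log2 ratio of -0.98.

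Mrps24, a small subunit protein at the entry of the messenger RNA channel and the counterpart of bacterial S3, was the gene at least 2-fold higher. Its signal was 1140 with adenosine and 519 with IFN-gamma alone, a log2 ratio of 1.13. A second probe set read 561 and 621, a log2 ratio of -0.15. Both are of the kind whose probes can match more than 1 gene, and they disagree in direction. In the deposited values the brighter one also had a lower signal with adenosine (log2 ratio -0.36).

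Promoter sequences of the 5 genes past 2-fold are shown so that the letters can be set beside their values. Each runs 5′ to 3′ on the strand of the gene, from 150 bases before to 50 bases after the annotated start, from RefSeq on GRCm38.p6. Capitals mark matches, on either strand, to 5 motifs described below: ETS, YY1, NRF1, the E-box and the cAMP response element. They cover chr7:105811038-105811237 (minus strand) for Mrpl17, chr2:28467916-28468115 (plus strand) for Mrps2, chr11:59202336-59202535 (plus strand) for Mrpl55, chr2:24975049-24975248 (minus strand) for Mrpl41 and chr11:5707652-5707851 (minus strand) for Mrps24.
Mrpl17: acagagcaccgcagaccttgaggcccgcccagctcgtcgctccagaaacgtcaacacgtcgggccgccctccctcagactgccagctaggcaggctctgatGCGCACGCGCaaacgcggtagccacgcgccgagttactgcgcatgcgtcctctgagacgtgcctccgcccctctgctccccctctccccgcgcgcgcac
Mrps2: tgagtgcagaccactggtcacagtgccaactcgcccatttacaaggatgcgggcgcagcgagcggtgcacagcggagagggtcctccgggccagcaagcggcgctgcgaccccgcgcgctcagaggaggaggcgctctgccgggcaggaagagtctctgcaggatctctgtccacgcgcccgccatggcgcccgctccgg
Mrpl55: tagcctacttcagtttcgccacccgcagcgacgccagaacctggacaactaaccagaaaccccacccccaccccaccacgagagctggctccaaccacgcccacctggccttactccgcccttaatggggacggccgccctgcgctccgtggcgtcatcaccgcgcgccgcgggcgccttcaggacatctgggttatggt
Mrpl41: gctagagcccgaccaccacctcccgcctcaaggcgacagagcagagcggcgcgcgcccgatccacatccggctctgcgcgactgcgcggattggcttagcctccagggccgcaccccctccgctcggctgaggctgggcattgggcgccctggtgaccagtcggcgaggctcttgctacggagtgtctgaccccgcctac
Mrps24: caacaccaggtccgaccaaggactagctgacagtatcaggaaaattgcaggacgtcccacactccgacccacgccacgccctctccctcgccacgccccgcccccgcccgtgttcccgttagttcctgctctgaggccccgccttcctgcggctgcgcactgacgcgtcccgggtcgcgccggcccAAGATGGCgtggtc
The capitals in Mrpl17 are a match to the NRF1 motif that starts 49 bases before the start site, and those in Mrps24 a match to the YY1 motif that begins at base 37 after it. No capital stands in the other windows, which says only that matches to these 5 motifs are not there. Shorter motif forms and other sites also searched were not marked. Bases further upstream were searched but are not shown. They hold a match to the ETS motif in Mrpl17 that starts 237 bases before the start site.

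Promoters were searched for motifs of factors known to act on nuclear genes of mitochondria, in windows from 250 bases before to 50 bases after the start, on both strands. RefSeq windows were matched for 65 of the 74 members. The ETS core CCGGAAG, which GABP binds, was present in 24 of them (36.9%), against 24.04% of 5652 measured genes with a window and 9.93% of all 27025 genes with one. AAGATGGC, a core of the YY1 site, was present in 11 members (16.9%), against 6.44% of measured genes and 3.19% of all genes. The NRF1 motif, whose match in Mrpl17 stands in capitals above, with any base allowed in its middle, was present in 12 members (18.5%), against 14.1% and 5.19%. At least 1 of these 3 motifs was found in 40 members (61.5%), and in 38.7% of measured genes. No matches of different motifs overlapped in the members' windows.

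Motifs outside the mitochondrial set were about as common in members as in other measured genes, or less so. The E-box CACGTG was found in 5 members (7.69%), against 12.9% of measured genes. TGACGTCA, the cAMP response element, was found in 2 members (3.08%), against 3.79% of measured genes. These were Mrpl16, at 1014 with adenosine and 681 with IFN-gamma alone (log2 ratio 0.57), and Mrpl49, at 414 and 329 (log2 ratio 0.33). As a description, the median log2 ratio was 0.23 over the 11 members with the YY1 letters and -0.16 over those without, -0.22 with and -0.00099 without the ETS letters, and -0.23 with and -0.08 without the NRF1 letters. These differences were not tested, and the motifs were chosen with the values known.

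Beyond the 2-fold genes, the large subunit members with the lowest ratios were Mrpl1 and Mrpl38. Mrpl1, the counterpart of the L1 stalk protein, was at 144 with adenosine and 251 with IFN-gamma alone (log2 ratio -0.80). Mrpl38, a mitochondria-specific protein of the central protuberance, was at 191 and 326 (log2 ratio -0.77). At the upper end of the large subunit stood Mrpl28, at 1130 with adenosine and 643 with IFN-gamma alone, a log2 ratio of 0.81. Its other probe sets gave 0.09 and -0.27, so the brightest stands alone.

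Mrpl9 was at 978 with adenosine and 634 with IFN-gamma alone (log2 ratio 0.62), and a second probe set gave 0.65. The second probe set of Mrpl49 gave 0.32, beside 0.33 for its brightest. Mrpl35 was at 1328 and 883 (log2 ratio 0.59). Mrpl42 was at 1876 and 1388 (log2 ratio 0.43), the highest adenosine signal among the members. Mrpl52, with the highest IFN-gamma signal, was at 1508 with adenosine and 2047 with IFN-gamma alone (log2 ratio -0.44).

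In the small subunit, Mrps17 followed Mrps2 and Mrps18b at the lower end, at 543 with adenosine and 824 with IFN-gamma alone (log2 ratio -0.60). Mrps9 was at 280 and 414 (log2 ratio -0.57), and its other probe sets gave -0.61 and -0.19. Mrps14 was at 1373 and 1822 (log2 ratio -0.41), with a second, much dimmer probe set at 0.36. At the upper end, after Mrps24, were Mrps36 (497 against 358, log2 ratio 0.47), Mrps30 (926 against 723, 0.36), Mrps16 (877 against 718, 0.29) and Mrps26 (1270 against 1056, 0.27). Mrps34, among the brightest of the small subunit, was at 1120 and 1327 (log2 ratio -0.25). The 30 members outside the rule for named genes had log2 ratios from -0.68 to 0.27, with a median of -0.12.

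**Figure D3:**
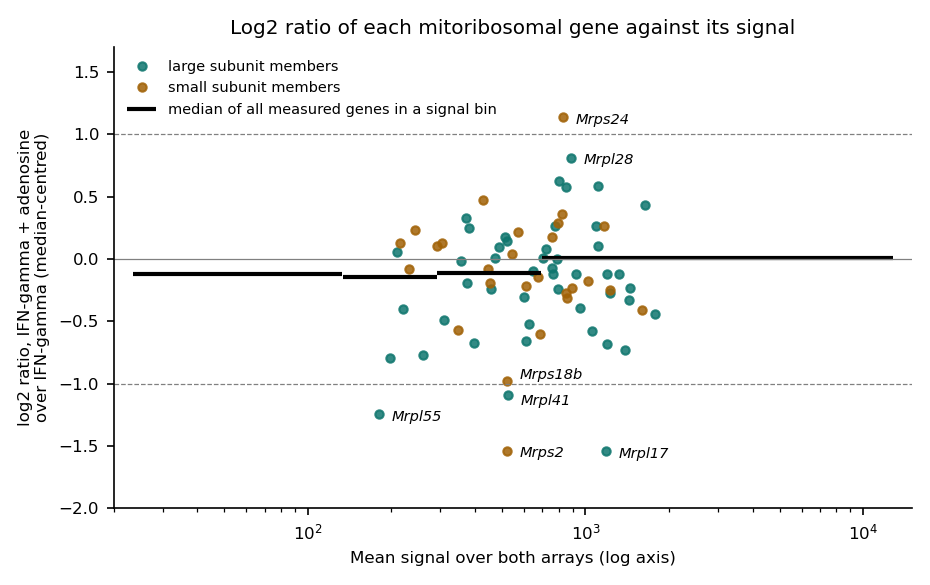
Log2 ratio (adenosine with IFN-gamma over IFN-gamma alone) against mean signal on a log axis, for the large and small subunit genes (1 point a gene), with the median of all measured genes in each of 4 signal bins as a black bar. Members of every brightness scatter around these bars, and 65 of 74 are brighter than the median measured gene.

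The brightest genes of the array tended to have higher ratios. Measured genes were divided by mean signal into 4 bins of like size. Of the 74 members, 37 fell in the brightest bin, where their median log2 ratio was -0.12 against 0.0073 for all genes of that bin. Another 28 fell in the next bin, with -0.17 against -0.11, and 9 in the bin below it, with -0.08 against -0.14. None was in the dimmest bin. At least 2-fold lower and higher in the brightest bin were 6.10% and 2.40% of all genes, beside 1 member each way. In the next bin these were 8.74% and 3.35%, beside 2 members lower and none higher. In the bin below it they were 14.3% and 6.16%, beside 1 member lower and none higher. The SD of all genes was 0.60, 0.69 and 0.83 in these bins, and that of the members 0.49, 0.46 and 0.52. In the 3 bins that held members, the medians of members and of all genes differed by at most 0.13.

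Members were also grouped by the role of the protein, with no test. Proteins around the exit of the peptide tunnel (Mrpl17, Mrpl22, Mrpl23, Mrpl24, Mrpl45 and Mrpl47) had log2 ratios from -1.54 to 0.27, with a median of -0.23. Mrpl45, which tethers the ribosome to the inner membrane, was at 851 with adenosine and 707 with IFN-gamma alone. Mrpl24 was at 1329 and 1561 (log2 ratio -0.23). The stalk that recruits translation factors (Mrpl10, Mrpl11 and Mrpl12) had log2 ratios from -0.24 to -0.08 by the brightest probe sets. Other probe sets of Mrpl11 gave 0.12 and 0.35. Its brightest turned to 0.05 with quantile scaling and 0.01 with loess scaling. Mrpl12, which is also known to bind the mitochondrial RNA polymerase, was at 1262 with adenosine and 1374 with IFN-gamma alone.

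The members grouped under the central protuberance (Mrpl38, Mrpl40, Mrpl46, Mrpl48 and Mrpl58) ran from -0.77 to 0.14, with a median of 0.0048. Mrpl58, a peptidyl-tRNA hydrolase built into the ribosome, was at 476 with adenosine and 750 with IFN-gamma alone (log2 ratio -0.66). The 3 members grouped under messenger RNA entry and decoding (Mrps5, Mrps12 and Mrps24) lay above 0 by their brightest probe sets, from 0.13 to 1.13. The second probe set of Mrps24 was below 0, as were the deposited ratios of all members. Mrps12, of the decoding centre, was at 317 and 289 (log2 ratio 0.13), by a probe set that can match more than 1 gene. Mrps5, at the entry of the messenger RNA, was at 224 and 205 (log2 ratio 0.13). The 2 members grouped under the tRNA exit site and messenger RNA exit were Mrps7 (log2 ratio -0.08) and Mrps11 (0.23). Mrps6 was at 225 and 238 (log2 ratio -0.08). These groups by role were formed after the values had been seen, and they do not list every protein of each site. Ribosomal proteins without an Mrp symbol were not part of them.

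Mammals have 3 proteins related to bacterial S18, each from its own gene. Mrps18a was at 764 with adenosine and 946 with IFN-gamma alone (log2 ratio -0.31). Mrps18c was at 958 and 1081 (log2 ratio -0.17), and Mrps18b, given above, was lowest of the 3. Mrps18a lay 0.67 and Mrps18c 0.81 above Mrps18b on the log2 scale, and each is read by 1 probe set. Mrps22, a mitochondria-specific gene whose human counterpart is mutated in respiratory chain deficiency, was at 774 with adenosine and 933 with IFN-gamma alone (log2 ratio -0.27).

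Members were also divided by evolutionary origin. The 30 genes whose unified ribosomal protein name has no bacterial counterpart, with Mrps36, Mrps18a and Mrps18b counted among them, had a median log2 ratio of -0.0037, and 15 of them lay below 0. The 44 genes with a named bacterial counterpart had a median of -0.12, with 30 below 0. Of the 5 genes past 2-fold, 4 had a bacterial counterpart (9.09% of such genes). Mrpl41 was the only one without (3.33% of those genes). Among all measured genes 14.7% were past 2-fold. The medians differed by 0.12, which could not be tested, and the SD of single genes was 0.43 and 0.53.

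Several genes were read by more than 1 probe set. Of 127 probe sets, 105 were above the floor on both arrays and 20 below it on both. More than 1 usable probe set was available for 22 members. The 2 brightest agreed in sign in 14 of these and differed by less than 0.5 on the log2 scale in 16. Their scatter gave an SD of 0.43 for 1 reading. For the other 52 members the ratio rests on 1 probe set.

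**Figure D4:**
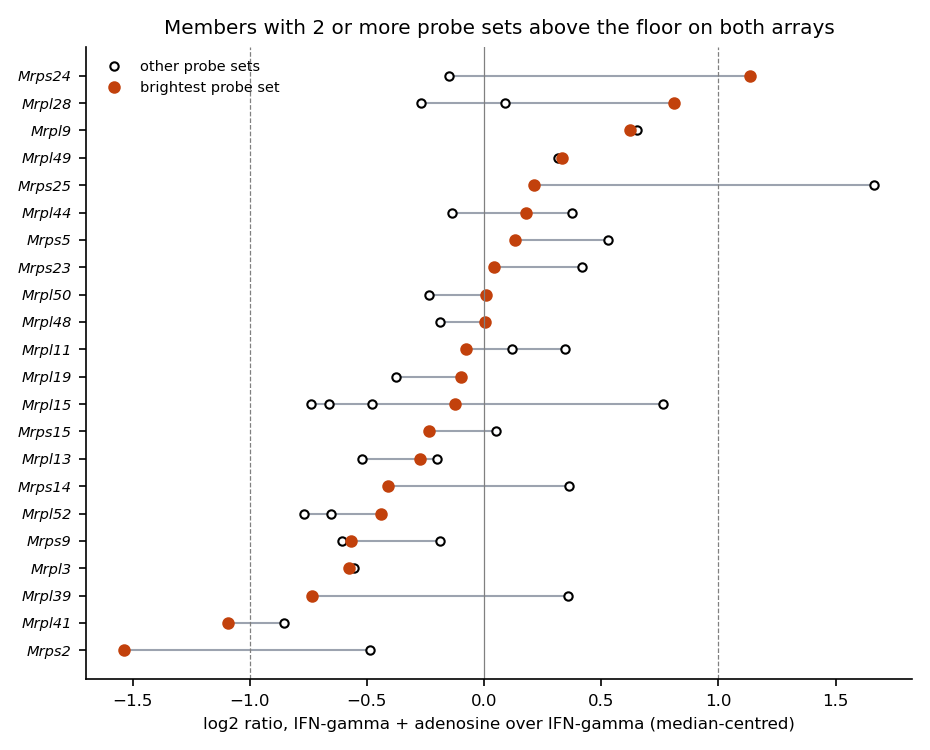
Log2 ratio (adenosine with IFN-gamma over IFN-gamma alone) from each probe set above the floor on both arrays, for the 22 members that have more than 1 (filled: brightest; open: others; dashed lines: 2-fold). Mrps25, Mrpl15, Mrps24, Mrpl39, Mrpl28 and Mrps2 have readings more than 1 log2 unit apart, while those of Mrpl3, Mrpl9 and Mrpl49 nearly coincide.

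Readings of Mrpl3, a protein near the peptidyl transferase centre, lay close together. It was at 847 with adenosine and 1263 with IFN-gamma alone (log2 ratio -0.58), and its second probe set gave -0.56. Mrpl13 gave -0.27, -0.20 and -0.52 by its 3 probe sets. Mrpl52 gave -0.44, -0.65 and -0.77. These genes lay below 0 by every usable reading, as did Mrpl41, Mrps2, Mrps9 and Mrpl19 (-0.10 and -0.37).

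Readings of other members disagreed. Mrpl39 was at 1045 with adenosine and 1738 with IFN-gamma alone by its brightest probe set (log2 ratio -0.73), and at 954 and 745 by the second (0.36). Mrps25 was at 613 and 528 (log2 ratio 0.22), whereas a dimmer probe set read 204 with adenosine and 64.3 with IFN-gamma alone, a log2 ratio of 1.67. Mrpl15, the member with the most probe sets, gave ratios from -0.74 to 0.76 over 5 usable ones, with -0.12 for the brightest. Mrpl44 gave 0.18, -0.14 and 0.37, and Mrpl11 gave -0.08, 0.12 and 0.35. Mrps15, Mrps5 and Mrps23 gave -0.24, 0.13 and 0.04 by the brightest and 0.05, 0.53 and 0.42 by the second. Mrpl48 and Mrpl50 gave 0.0048 and 0.0093, and second readings of -0.19 and -0.24.

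Genes that assist the mitochondrial ribosome were counted in the same way, beside the 10.1% of all measured genes that were 2-fold lower and the 4.52% that were 2-fold higher. Among mitochondrial translation factors, 7 of 15 listed genes were on the array with a symbol of their own, and all 7 were measured. Their median log2 ratio was -0.54, and 1 gene was past 2-fold. This was Mtif2, the initiation factor that places the first tRNA, at 107 with adenosine and 409 with IFN-gamma alone (3.81-fold lower, 1 probe set). Gfm1, the elongation factor of translocation, was at 364 and 582 (log2 ratio -0.68).

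Assembly factors and rRNA-modifying enzymes had a median of -0.33 over 14 measured genes of 22, with 3 at least 2-fold lower and 1 higher. Tfb1m, which dimethylates the small subunit rRNA, was at 55.8 with adenosine and 200.2 with IFN-gamma alone, 3.59-fold lower and close to the floor. Mrm3, a methyltransferase of the large subunit rRNA, was at 269 and 106, 2.54-fold higher. The other lower genes were Fastkd2, of large subunit assembly (log2 ratio -1.18, second probe set -1.19), and Trub2, a pseudouridine synthase (-1.11, second probe set -0.996). Both had readings that lay close together.

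Mitochondrial aminoacyl-tRNA synthetases had a median of -0.45 over 10 measured genes, of 11 on the array and 20 listed. Past 2-fold were 2 genes, both lower. Rars2, which charges the arginine tRNA, was at 136 with adenosine and 459 with IFN-gamma alone (3.38-fold lower), and Iars2, for isoleucine, at 98.9 and 248.5 (2.51-fold lower). Genes of mitochondrial transcription and RNA stability had a median of -0.11 over 13 measured genes, of 13 on the array and 15 listed. None was past 2-fold by its brightest probe set. The largest ratios there were in Supv3l1, an RNA helicase (log2 ratio -0.81), and Pnpt1, a ribonuclease (-0.68). Second probe sets gave -1.49 for Pnpt1 and -1.03 for Hsd17b10, a subunit of mitochondrial RNase P whose brightest gave -0.05. The 4 measured ribosomal proteins without an Mrp symbol had a median of -0.18, with Dap3 at 1084 with adenosine and 1214 with IFN-gamma alone (log2 ratio -0.16), Chchd1 at -0.20, Ptcd3 at -0.27 and Gadd45gip1 at 0.57.

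Regulators of nuclear genes for mitochondria had a median of -0.36 over 9 measured genes, of 11 on the array and 12 listed. None was past 2-fold. Pprc1, a coactivator of the PGC-1 family, was at 264 with adenosine and 512 with IFN-gamma alone (log2 ratio -0.96), and the nuclear receptor gene Esrra at 134 and 238 (-0.84). Of the factors whose motifs were searched, Nrf1 was at 213 and 119 (0.83, second probe set 0.34), Gabpa at 334 and 537 (-0.69, second probe set -0.22) and Yy1 at 1845 and 1811 (0.03, second probe set 1.03). Myc and Ppargc1a were below the floor on both arrays.

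Related gene groups lay somewhat higher. Oxidative phosphorylation subunits had a median log2 ratio of 0.17 over 75 measured genes, with 1 gene past 2-fold (Ndufc1, of complex I, log2 ratio -1.25, second probe set -0.19), the highest being Atp5g3 of ATP synthase (0.86). Cytosolic ribosomal proteins had a median of 0.53 over 40 measured genes, with 1 lower (Rpl12, -1.002) and 1 higher (Rpl27a, 2.21). Of all measured genes, 10.1% were 2-fold lower and 4.52% higher. Rpl12 read 78.6 with adenosine and 157.5 with IFN-gamma alone, and Rpl27a 260 and 56.2. Both are dim beside the median signals of their group, 9508 and 6508. The median log2 ratios of both groups were negative in the deposited values (-1.33 and -0.96) and with scaling on the spiked-in controls (-0.80 and -0.44). With loess scaling, which removes the trend of ratio with brightness, the medians were -0.05 for mitoribosomal genes, 0.06 for oxidative phosphorylation and 0.04 for the cytosolic ribosome. With quantile scaling the cytosolic ribosome stood at -0.05. The order of the 3 groups thus differed between scalings, and no test of their difference could be made.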

How the data were processed

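The study's 2 arrays were used, 1 for each treatment. The authors deposited intensity on a linear scale for each probe set; the submitters' processing notes name the Affymetrix software GCOS. Its signal algorithm is not given in the sources used here. Of 22690 probe sets, 64 are manufacturer's controls, 691 carry several gene symbols (3 with a mitoribosomal one) and 1555 carry no name here; these stayed out of gene results.

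The adenosine array was scaled as described above, so that log2 ratios are median-centred. The design had named this scaling as the main one. That choice followed an earlier report of these data, which found the signals not brought to a common level. A dimmer signal below the floor was raised to it. Where several probe sets read a gene, the brightest by mean over both arrays stood for it. Tests need replicate arrays, so genes were counted at 2-fold, and precision is limited by how few arrays there are. Scaling on spiked-in controls used the hybridization controls; the 12 poly-A control probe sets, planned for it too, were left out because their deposited signals lay between 0.1 and 5.1. The calculation was tested on simulated data. Python 3.11.15, numpy 2.4.6, pandas 2.3.3 and statsmodels 0.14.6 were used.

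Members, gene lists and motifs were chosen with earlier results of these data known. Named were members past 2-fold, the 5 highest and lowest ratios and 3 brightest genes of each subunit, members with more than 1 usable probe set, 12 genes named whatever their value, and the 2 largest ratios of each other list; further names were chosen after their values were seen. Shorter and stricter forms of the motifs, the CCAAT box and a STAT site were also searched.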

Additional observations from a re-analysis of the deposited data

How the results depend on the processing

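No paired analysis was possible because there is a single array for either treatment; leaving out replicates was likewise not possible. Scaling moved the medians of all, large subunit and small subunit members to -1.62, -1.62 and -1.58 in the values as deposited and to -1.09, -1.09 and -1.05 with scaling on the spiked-in controls, where the shift of the whole array is kept wholly or in part. At least 2-fold lower were then 69 and 43 members, against 4, and 0 were at least 2-fold higher in both, against 1; Mrps24 turned to -0.36 as deposited. With quantile scaling the medians of all and of large subunit members were -0.011 and -0.026. Large minus small subunit medians stayed between -0.11 and -0.01 under the alternatives tried, subunits by structure included. With the mean of all measured probe sets, 0 members were at least 2-fold higher, and Mrps24 stood at 0.49. Without shared probe sets, which left 54 members measured, 2 were at least 2-fold lower and 0 higher. A 1.5-fold threshold gave 12 lower and 4 higher members (21.8% and 12.9% of all measured genes), and a 3-fold threshold 0 and 0. The other floors, the pseudocount of 16 and the loess, quantile and trimmed mean scalings left both counts within 1.5 times. The genes counted were not always the same. With the floor at the 67th percentile, Mrpl55 (-0.65) fell short of 2-fold and Mrps18b (-1.04) reached it. With quantile scaling Mrpl41 (-0.98) fell short.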
